A study of Homo sapiens with 6 samples.

Results

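The genes described here are 10 members of the TNF superfamily, measured in human mammary epithelial cells depleted of the RasGAP *DAB2IP*. The receptor genes are *TNFRSF12A*, *TNFRSF10A*, *TNFRSF10D*, *LTBR*, *TNFRSF21*, *NGFR*, *CD40* and *TNFRSF11B*, and the ligand genes are *TNFSF10* and *TNFSF15*. They were taken by name from a list drawn up after earlier results of these data were known, each name matched 1 row of the count table, and together they are 10 of its 58735 genes. RNA-Seq was carried out on MCF10A, an established nonmalignant line of human breast epithelium, 48 hours after transfection. The 3 siControl libraries (genotype labeled WT) received a nontargeting siRNA pool, and the 3 siDAB2IP libraries (genotype labeled DAB2IP knockdown) received siRNA directed at *DAB2IP*. Both groups were grown in the same medium with horse serum, insulin, EGF, cholera toxin and hydrocortisone, and no TNF family ligand is named among its additions. All libraries come from 1 cell line and 1 targeting reagent, and the labels do not say whether libraries of a group were separate cultures, so the p-values measure the spread between these libraries.

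TNF superfamily ligands are membrane-bound or soluble proteins that act as trimers and engage cysteine-rich receptors on the same or neighboring cells. Receptors with a death domain, such as TNFRSF10A, TNFRSF21 and NGFR, can recruit FADD or TRADD and caspases, whereas receptors without one, such as TNFRSF12A, LTBR and CD40, bind TRAF adaptors that lead to the canonical and noncanonical NF-κB pathways and to MAP kinases. Decoy receptors, among them TNFRSF10D and the secreted TNFRSF11B, bind ligand without transmitting a full death signal. In mammary epithelium the family is known for its parts in branching, involution, inflammation and cell survival.

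The libraries held between 16353783 and 21916062 counts on genes, and 3 counts, the upper limit for a gene at 0, equal 0.137 to 0.183 CPM (counts per 1e+06 counts) for counting error only. *DAB2IP* itself averaged 91.6 ± 13.1 CPM (SD, n = 3) in siControl and 25.1 ± 2.57 CPM (n = 3) in siDAB2IP, so the targeted gene fell in all siDAB2IP libraries. Of 8 markers of basal mammary epithelium, all were detected. Their summed level was 2447 to 3085 FPKM in siControl and 1225 to 1583 FPKM in siDAB2IP. FPKM are fragments scaled by gene length and a library size near the library total. Among the 8 markers, 4 (*KRT5*, *KRT6A*, *KRT14* and *KRT17*) were called lower and 0 were called higher. The fitted changes of the 8 were below 0 for 6 and above 0 for 2. The 8 immune markers summed to between 19.2 and 37.0 FPKM in siControl and between 26.2 and 40.7 FPKM in siDAB2IP, nearly all of it *CD14*, and *CD3E* and *MS4A1* were at 0 in every library. The 4 endothelial markers summed to 3.27 to 4.69 and 2.08 to 2.29 FPKM, with *KDR* called lower, and the 4 fibroblast markers, mostly *DCN*, summed to 11.5 to 21.4 and 9.51 to 13.4 FPKM in siControl and siDAB2IP, respectively. Any part of these marker levels in the results that follow was not tested. In RNA from whole cultures, fewer cells of a type and less RNA per cell cannot be told apart.

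Knockdown of *DAB2IP* was accompanied by higher RNA of 3 receptors, *TNFRSF12A*, *TNFRSF10A* and *TNFRSF10D*, and by lower RNA of the ligand *TNFSF10*. The other 6 genes (*LTBR*, *TNFRSF21*, *NGFR*, *CD40*, *TNFRSF11B* and *TNFSF15*) did not pass the threshold, an adjusted p under 0.05 in edgeR's quasi-likelihood test over all 15430 genes with enough counts to be tested. All 10 genes were among those tested. The 4 called genes are 40% of the 10, against 14.2% of all genes tested, of which 6.55% rose and 7.65% fell. Of the 10 fitted log2 fold changes 5 were above 0 and 5 below, with a median of 0.0057, and the median over all genes tested was 0.0090. All 3 siDAB2IP libraries lay on 1 side of all 3 siControl libraries, in CPM, for the 4 called genes alone among the 10, and this separation was seen in 35.9% of all genes tested.

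Levels of different genes were compared as FPKM, which takes gene length into account. In siControl the order of the mean levels was *TNFRSF10D* (62.4 ± 1.56 FPKM), *LTBR* (57.9 ± 4.06), *TNFRSF12A* (53.5 ± 3.0), *TNFRSF10A* (43.8 ± 2.98) and *TNFRSF21* (19.8 ± 3.93; SD, n = 3 for each). These 5 receptors were well above the remaining genes, which followed as *TNFSF10* (2.57 ± 0.634 FPKM), *NGFR* (1.44 ± 0.501), *CD40* (1.15 ± 0.103), *TNFSF15* (0.410 ± 0.172) and *TNFRSF11B* (0.287 ± 0.0764). In that order, the libraries of *TNFRSF10D* and *LTBR*, of *LTBR* and *TNFRSF12A*, of *TNFSF10* and *NGFR*, of *NGFR* and *CD40*, and of *TNFSF15* and *TNFRSF11B* overlapped, so the neighbors in these pairs were not separated by their spread. In siDAB2IP, *TNFRSF12A* came first (114 ± 15.3 FPKM), followed without overlap by *TNFRSF10D* (78.5 ± 3.99) and then by *TNFRSF10A* (60.3 ± 2.95) and *LTBR* (55.8 ± 6.10), which overlapped. *TNFRSF21* kept its place after these (20.6 ± 1.13 FPKM). Below it, *CD40* (1.03 ± 0.0669 FPKM), *TNFSF10* (0.899 ± 0.250), *NGFR* (0.604 ± 0.356) and *TNFSF15* (0.487 ± 0.0431) followed, each overlapping with its neighbor, and *TNFRSF11B* was again the lowest, without overlap (0.277 ± 0.0545 FPKM). Among the 29 receptor genes of the superfamily, *TNFRSF12A* ranked 5 in siControl and 2 in siDAB2IP, and among the 18 ligand genes *TNFSF10* ranked 4 and then 6.

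**Figure D1:**
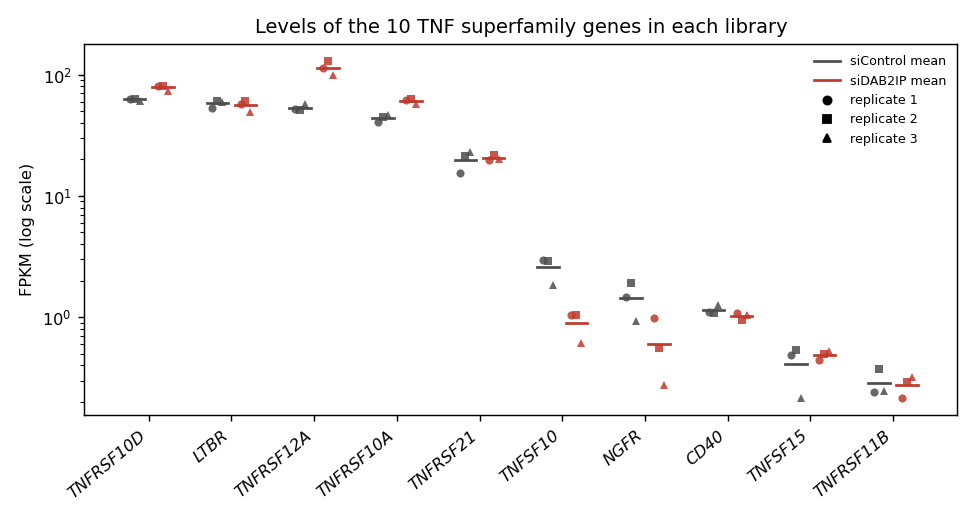
FPKM on a log axis for each of the 10 genes in the 3 siControl and the 3 siDAB2IP libraries, with 1 point per library and a bar at each group mean. The siDAB2IP points lie above all siControl points for TNFRSF12A, TNFRSF10A and TNFRSF10D and below them for TNFSF10, and the points of the 2 groups overlap for the other 6 genes.

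*TNFRSF12A* encodes Fn14, the receptor for the ligand TWEAK and a small TRAF-binding receptor induced by growth factors and injury. It lies on chromosome 16 from 3018445 to 3022383 on the plus strand of GRCh38 (identifier ENSG00000006327). Its level was 97.2, 95.8 and 106 CPM in siControl replicates 1, 2 and 3 and 212, 243 and 186 CPM in siDAB2IP replicates 1, 2 and 3. Every siDAB2IP library was above every siControl library, and the lowest of them exceeded the highest control by more than the range of the controls. The means were 99.8 ± 5.73 and 214 ± 28.5 CPM, a log2 fold change of 1.10 (SE 0.12) with a 95% interval of 0.84 to 1.36, or 2.14-fold, and the edgeR adjusted p was 0.000759. This gene accounted for between 10.1% and 11.1% of the summed FPKM of the 29 receptor genes in siControl and for between 15.8% and 20.1% in siDAB2IP. *TNFSF12*, which encodes its ligand TWEAK, had few counts in all libraries, with 17, 21 and 21 in siControl and 27, 42 and 28 in siDAB2IP. Its groups did not overlap either, but its log2 fold change of 0.75 (SE 0.31) did not pass the edgeR test (adjusted p = 0.137). Genes that overlap *TNFSF12* were not looked for, and what they might do to its counts was not tested.

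**Figure D2:**
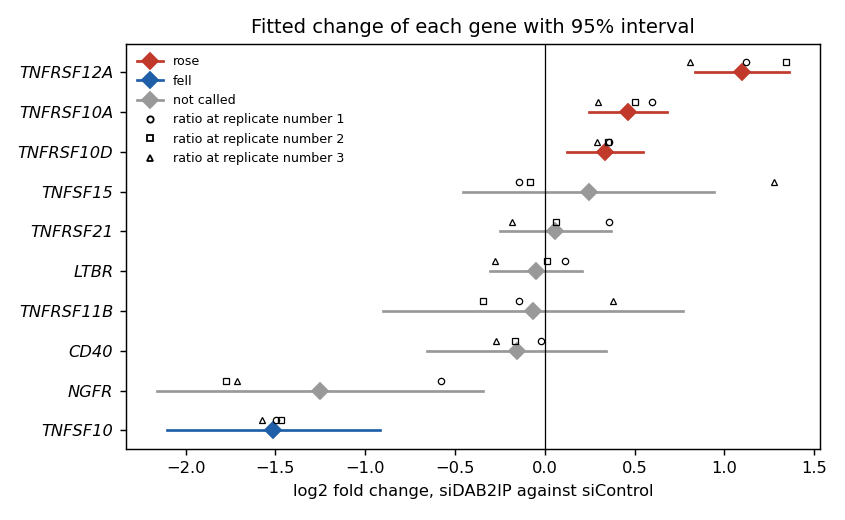
Log2 fold change of each of the 10 genes, siDAB2IP against siControl, with the 95% interval from the edgeR fit as a bar and the log2 ratios of the 3 same-numbered library pairs as small marks. TNFRSF12A (1.10) and TNFSF10 (−1.51) lie farthest from 0 among the called genes, and NGFR (−1.25) has the widest interval.

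TRAIL, encoded by *TNFSF10*, is the ligand of 4 membrane receptors. TNFRSF10A and TNFRSF10B carry a death domain and can start apoptosis, TNFRSF10D has a truncated death domain, and TNFRSF10C is held on the membrane by a lipid anchor and has no intracellular domain. In siDAB2IP the ligand RNA was lower and the RNA of 3 of the 4 receptors was called higher, while *TNFRSF10B* did not pass the test. The permutation test of any 1 gene cannot go below an exact two-sided p of 0.1 with 3 libraries against 3, the value obtained for *TNFSF10*, *TNFRSF10A*, *TNFRSF10D* and *TNFRSF12A*.

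*TNFSF10* lies on chromosome 3 from 172505508 to 172523507 on the minus strand. Its level was 10.4, 10.2 and 6.46 CPM in siControl and 3.67, 3.66 and 2.15 CPM in siDAB2IP. The highest siDAB2IP library was below the lowest siControl library, and replicate 3 was the lowest of its group in both. The means were 9.01 ± 2.21 and 3.16 ± 0.875 CPM, and the gene fell by 1.51 on the log2 scale (SE 0.27), to 0.351 of the control level, with an edgeR adjusted p of 0.00651. Within the pairs of libraries that share a replicate number the log2 ratios were −1.50, −1.47 and −1.58, a narrower range than that of the levels themselves.

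The sequence upstream of *TNFSF10* is shown because this was the called ligand among the 10 genes and because its window holds a motif of interferon-responsive promoters. It was taken from RefSeq for GRCh38.p14, chr3:172523508-172523680 on the minus strand, 250 to 78 bases before the RefSeq start, and is written 5′ to 3′ along the gene. The capitals mark a match to GAAA, 2 bases of any kind and GAAA, the core of the interferon-stimulated response element, which lies on the opposite strand 187 to 178 bases before the start.
TNFSF10: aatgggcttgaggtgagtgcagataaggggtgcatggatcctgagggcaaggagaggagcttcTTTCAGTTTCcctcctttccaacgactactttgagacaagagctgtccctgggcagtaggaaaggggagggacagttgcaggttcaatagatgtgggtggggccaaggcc
Such a match occurs in 3.57% of 35116 RefSeq promoter windows of the same length, searched on both strands from 250 bases before to 50 bases after each start. The promoter table held windows for 4 of the 10 genes, *TNFSF10*, *TNFSF15*, *LTBR* and *TNFRSF21*. None of the 4 held the NF-κB consensus, found in 5.91% of all windows, or the STAT motif TTCNNNGAA, found in 7.66%. The RefSeq starts of *TNFSF15* (114792530) and *LTBR* (6384162) lie inside their genes, whose outermost starts are 114806126 and 6375045. The windows of *TNFSF15* and *LTBR* therefore do not reach those outermost starts. The AP-1 motif TGANTCA, found in 7.71% of all windows, occurred in the *TNFSF15* window only, 120 to 114 bases before its RefSeq start. These matches describe letters in a window and not binding.

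*TNFRSF10A*, on the minus strand of chromosome 8 from 23190452 to 23225126, was measured at 121, 132 and 139 CPM in siControl and at 183, 186 and 170.1 CPM in siDAB2IP. The groups did not overlap, and the gap between them was wider than the range of either. The means were 131 ± 8.82 and 180.0 ± 8.68 CPM, a log2 fold change of 0.46 (SE 0.10), or 1.38-fold, with an edgeR adjusted p of 0.0135. The call was lost without siControl replicate 1 (adjusted p = 0.0575) or siControl replicate 2 (adjusted p = 0.073), with log2 fold changes of 0.39 and 0.45. Its exons overlap 2 genes of the opposite strand, *TNFRSF10A-AS1* over 224 bases (at most 331 counts in a library) and *AC100861.1* over 266 bases (at most 128 counts). The strand setting of the counting is not given in the sources used here, so reads from these stretches cannot be told apart. Their number within the 1944 to 3366 counts of *TNFRSF10A* is not known. The log2 fold changes of *TNFRSF10A-AS1* and *AC100861.1* were 0.38 and 0.33, and neither was called (edgeR adjusted p = 0.0997 and 0.292). Their part in the *TNFRSF10A* values was not tested.

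*TNFRSF10D*, on the minus strand of the same chromosome from 23135588 to 23164030, was measured at 226, 226 and 217 CPM in siControl and at 289, 288 and 265 CPM in siDAB2IP. All siDAB2IP libraries were again above all siControl libraries. The means were 223 ± 5.31 and 281 ± 14.0 CPM, the log2 fold change was 0.33 (SE 0.09), or 1.26-fold, and the edgeR adjusted p of 0.0432 was close to the threshold. The call was lost without any 1 of the siControl replicates or without siDAB2IP replicate 1 or 2 (adjusted p between 0.108 and 0.159, log2 fold change between 0.30 and 0.33), and it was kept without siDAB2IP replicate 3 (adjusted p = 0.0146).

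The other 2 TRAIL receptors are not among the 10 genes and are given for completeness. *TNFRSF10B* was the most abundant, with 691, 731 and 763 CPM in siControl and 833, 818 and 1054 CPM in siDAB2IP, and its log2 fold change of 0.31 (SE 0.13) did not pass the edgeR test (adjusted p = 0.140) although the groups did not overlap. *TNFRSF10C* was measured at 3.43, 3.25 and 2.88 CPM in siControl and at 4.23, 5.43 and 7.83 CPM in siDAB2IP, a log2 fold change of 0.87 (SE 0.25) with an edgeR adjusted p of 0.0471. That call was kept only without siDAB2IP replicate 1 when libraries were left out in turn, and otherwise the adjusted p was between 0.0741 and 0.152. No stretch of 50 bases was shared between the transcripts of *TNFRSF10A*, *TNFRSF10B*, *TNFRSF10C* and *TNFRSF10D*. In *TNFRSF10C* transcripts 35.4% of the stretches of that length also occur in transcripts of other genes, the highest share of the 4. How far this affects the *TNFRSF10C* counts was not tested.

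Summed over the 4 receptors, the TRAIL receptor RNA was 238, 250.5 and 255 FPKM in siControl and 305, 303 and 337 FPKM in siDAB2IP. The share of the decoy *TNFRSF10D* in that sum was 23.8% to 26.5% in siControl and 21.9% to 26.6% in siDAB2IP, so these ranges overlapped. The ratio of the death receptor *TNFRSF10A* to its ligand *TNFSF10*, both as FPKM, was 13.7, 15.3 and 25.3 in siControl and 58.9, 60.0 and 93.3 in siDAB2IP. The ratio was thus higher in every siDAB2IP library than in any siControl library, as follows from a numerator that was higher and a denominator that was lower.

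**Figure D3:**
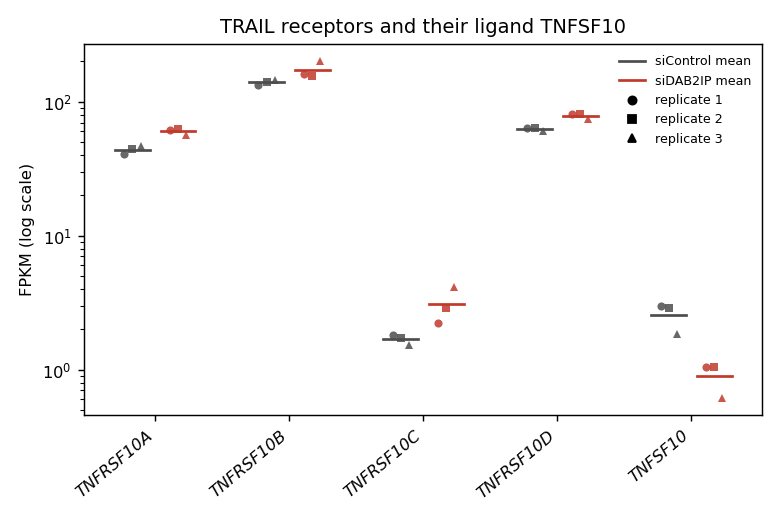
FPKM of the ligand TNFSF10 and of the 4 TRAIL receptors in each library, with 1 point per library and bars at the group means. TNFSF10 is below its siControl points in all 3 siDAB2IP libraries, and each receptor is above its siControl points in all 3.

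*LTBR*, the lymphotoxin β receptor, binds TRAF3 and leads to the noncanonical NF-κB pathway. On chromosome 12 from 6375045 to 6391571 on the plus strand, it was measured at 338, 384 and 378 CPM in siControl and at 365, 387 and 312 CPM in siDAB2IP. The groups overlapped, and the log2 fold change was −0.048 (SE 0.12, edgeR adjusted p = 0.825), with a 95% interval of −0.31 to 0.21 that leaves room for a change of that size either way. The pairs of libraries differed in direction, with log2 ratios of 0.11, 0.010 and −0.28. Its exons overlap those of *SCNN1A* on the opposite strand over 422 bases, 6.72% of the *LTBR* exon bases, and *SCNN1A* had up to 12474 counts in a library, so some uncertainty attaches to the *LTBR* level. Of its ligands, *TNFSF14* (LIGHT) fell from 44.6 ± 6.40 to 23.5 ± 1.44 CPM, a log2 fold change of −0.92 (SE 0.13, edgeR adjusted p = 0.0027). *LTB* had at most 9 counts in a library and was not tested, and *LTA* was at 0 in all 6 libraries.

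*TNFRSF21* (death receptor 6) binds the amyloid precursor protein in neurons and carries a death domain. On chromosome 6 from 47231532 to 47309905 on the minus strand, it was measured at 56.1, 76.5 and 83.4 CPM in siControl and at 71.8, 79.8 and 73.5 CPM in siDAB2IP. The siDAB2IP libraries lay within the range of the siControl libraries, among which replicate 1 was the lowest. The log2 fold change was 0.059 (SE 0.14, edgeR adjusted p = 0.82), with a 95% interval of −0.25 to 0.37.

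*NGFR* encodes the p75 neurotrophin receptor, which is also a marker of basal and myoepithelial mammary cells. On chromosome 17 from 49495293 to 49515017 on the plus strand, it was measured at 6.17, 8.03 and 3.88 CPM in siControl and at 4.12, 2.33 and 1.16 CPM in siDAB2IP. The groups overlapped, since siDAB2IP replicate 1 was above siControl replicate 3. The means were 6.03 ± 2.08 and 2.53 ± 1.49 CPM, with a log2 fold change of −1.25 (SE 0.41) and a 95% interval of −2.16 to −0.35, and the edgeR adjusted p of 0.0674 missed the threshold. Within library pairs of the same number the log2 ratios were −0.58, −1.77 and −1.72, all below 0, and in the edgeR fit with a term for the replicate number (the replicate block) the adjusted p was 0.0114. In that fit 21% of all genes tested were called. Without siDAB2IP replicate 1 the log2 fold change was −1.79 (adjusted p = 0.0225), and without siControl replicate 2 it was −1.0 (adjusted p = 0.237). Of the 8 basal markers 4, all keratin genes, were called lower between the same groups, as given above. The part of these markers in the *NGFR* values was not tested. On the opposite strand, *AC015656.1* overlaps the *NGFR* exons over 924 bases, 22.3% of the *NGFR* exon bases, and *AC006487.1* over 202 bases. Both had 0 counts in every library, and what these stretches do to the *NGFR* counts was not tested.

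The neurotrophin list of 13 genes, with ligands, co-receptors and adaptors of *NGFR*, held 7 genes with enough counts to be tested. Of these, 0 were called by edgeR, against 14.2% of all genes tested. At an unadjusted edgeR p under 0.05 *BEX3* was higher and *SORT1* lower. At that level 2238 of all 15430 genes tested were higher and 2398 were lower. *SORT1*, a sorting receptor that pairs with p75, was measured at 121 ± 9.0 CPM in siControl and 80.6 ± 22.6 CPM in siDAB2IP, with a log2 fold change of −0.58 (SE 0.18, edgeR adjusted p = 0.0541). It passed in DESeq2 (adjusted p = 0.0125), the 1 gene of the list to do so, and in edgeR with the replicate block (adjusted p = 0.0109). *BEX3*, an adaptor that binds p75, was measured at 49.1 ± 3.72 and 60.1 ± 7.29 CPM, with a log2 fold change of 0.29 (SE 0.11, edgeR adjusted p = 0.119). Both were named after their values were seen. The median log2 fold change of the 7 was 0.084.

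*CD40* is the receptor for CD40 ligand, best known on B cells and also present on epithelium. On chromosome 20 from 46118272 to 46129863 on the plus strand, it was measured at 2.80, 2.74 and 3.23 CPM in siControl and at 2.76, 2.44 and 2.67 CPM in siDAB2IP. The groups overlapped, and the log2 fold change was −0.16 (SE 0.22, edgeR adjusted p = 0.694), with a 95% interval of −0.65 to 0.34. Its ligand gene *CD40LG* was at 0 in all 6 libraries.

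*TNFRSF11B* encodes osteoprotegerin, a secreted decoy that binds RANKL and TRAIL. The gene, on the minus strand of chromosome 8 from 118923557 to 118952200, had only 11, 23 and 12 counts in siControl and 11, 15 and 16 counts in siDAB2IP. The groups overlapped, and with a log2 fold change of −0.066 (SE 0.38, edgeR adjusted p = 0.93) the 95% interval ran from −0.90 to 0.77, so changes within those bounds are not excluded. RANKL itself (*TNFSF11*) had 13, 14 and 2 counts in siControl and 4, 0 and 2 counts in siDAB2IP and was not tested. Its receptor RANK (*TNFRSF11A*) was measured at 8.37 ± 1.59 and 5.59 ± 1.81 CPM, with a log2 fold change of −0.58 (SE 0.25, edgeR adjusted p = 0.156).

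*TNFSF15* encodes TL1A, the ligand of TNFRSF25 and of the decoy TNFRSF6B. On chromosome 9 from 114784635 to 114806126 on the minus strand, it was measured at 3.86, 4.22 and 1.70 CPM in siControl and at 3.5, 3.99 and 4.17 CPM in siDAB2IP. The groups overlapped, with siControl replicate 3 far below the other libraries. The log2 fold change was 0.24 (SE 0.31, edgeR adjusted p = 0.654), with a 95% interval of −0.45 to 0.94, and it was −0.076 without siControl replicate 3. *TNFRSF25* (death receptor 3) was measured at 65.5, 59.1 and 72.0 CPM in siControl and at 79.4, 81.0 and 82.2 CPM in siDAB2IP. Its groups did not overlap, and its log2 fold change of 0.30 (SE 0.10) missed the threshold in edgeR (adjusted p = 0.0687) and passed with the replicate block (adjusted p = 0.0386). *TNFRSF6B* had 0 counts in all 6 libraries. Genes that overlap *TNFRSF6B* were not looked for, so whether its reads were left uncounted for that reason was not tested.

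Across the whole receptor superfamily, 18 of 29 genes had enough counts to be tested, and 4 rose and 1 fell (27.8% of those tested, against 14.2% of all genes), with a median log2 fold change of 0.095. The 5 calls became 2 with limma on FPKM and as few as 1 without siControl replicate 1 or siControl replicate 2. Besides the 3 receptors described above, *TNFRSF10C* rose, and *TNFRSF1B*, the second TNF receptor, fell from 2.26 ± 0.332 to 0.884 ± 0.509 CPM (log2 fold change −1.35, SE 0.39, edgeR adjusted p = 0.0451). When 1 library at a time was left out, the *TNFRSF1B* call was kept without siDAB2IP replicate 1 alone, and otherwise the adjusted p was between 0.0736 and 0.165. The 11 receptors that were not tested had at most 16 counts in any library, and *TNFRSF6B*, *TNFRSF8* and *TNFRSF13B* were at 0 in all. The summed receptor level was 474 to 513 FPKM in siControl and 628 to 647 FPKM in siDAB2IP. Without the 8 receptors described above, 10 further receptors were tested, of which 1 rose and 1 fell (20% of those tested, against 14.2% of all genes).

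Of the 18 ligand genes 9 were tested, and 1 rose and 2 fell (33.3% of those tested, against 14.2% of all genes), with a median log2 fold change of 0.24. Besides the fall of *TNFSF10* and *TNFSF14*, *TNFSF9*, which encodes the 4-1BB ligand, rose from 65.6 ± 3.83 to 110.3 ± 1.04 CPM (log2 fold change 0.75, SE 0.09, edgeR adjusted p = 0.00135). The 9 ligands that were not tested had at most 14 counts in any library, and *LTA*, *CD40LG*, *FASLG* and *TNFSF8* were at 0 in all. The summed ligand level was 115 to 135 FPKM in siControl and 123 to 152 FPKM in siDAB2IP, and these ranges overlapped. Without *TNFSF10* and *TNFSF15*, 7 further ligands were tested, of which 1 rose and 1 fell (28.6% of those tested, against 14.2% of all genes).

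**Figure D4:**
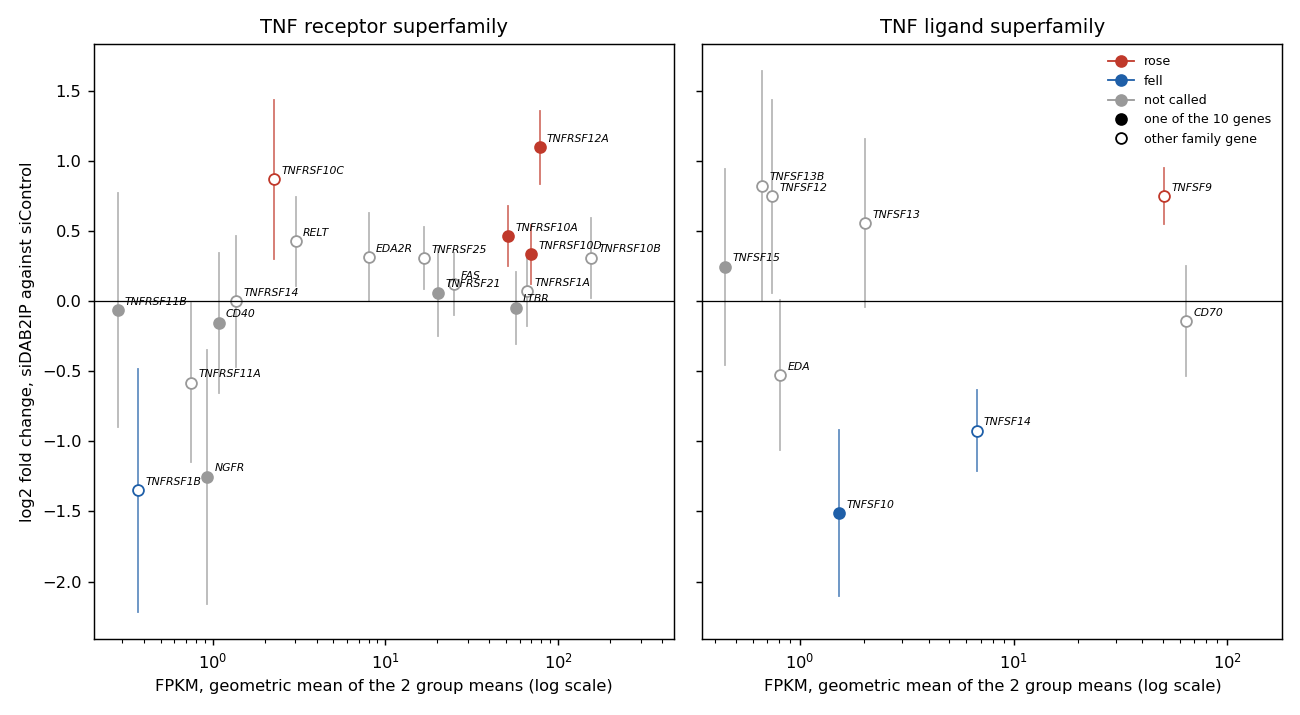
Log2 fold change of the 18 tested receptor genes (left) and the 9 tested ligand genes (right) against their FPKM on a log axis, with 95% intervals as bars. Filled points are the 10 genes described here and open points other family members, and colors mark the edgeR calls, with TNFRSF12A the called receptor at the highest point and TNFSF10 the ligand at the lowest.

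Downstream of the TRAF-binding receptors, all 14 genes of the adaptor and noncanonical NF-κB list were tested, and 2 rose and 2 fell (28.6%, against 14.2% of all genes), with a median log2 fold change of −0.011. The adaptors *TRAF3* (54.4 ± 5.37 to 73.7 ± 7.15 CPM, log2 fold change 0.44, SE 0.11, adjusted p = 0.0297) and *TRAF4* (128 ± 9.40 to 169 ± 13.6 CPM, log2 fold change 0.40, SE 0.10, adjusted p = 0.0306) rose. *TRAF3* restrains the noncanonical pathway by turning over its kinase NIK. The adaptor *TRAF5* fell from 38.9 ± 5.26 to 26.0 ± 2.08 CPM (log2 fold change −0.59, SE 0.13, adjusted p = 0.0164). *BIRC3*, which encodes the ubiquitin ligase cIAP2 and is a known NF-κB target, fell from 419 ± 14.5 to 209 ± 40.3 CPM (log2 fold change −1.0, SE 0.14, adjusted p = 0.00278). The *BIRC3* call held without any 1 library. The *TRAF3* call was lost without siControl replicate 2 or 3 or siDAB2IP replicate 1 or 2 (adjusted p of 0.0609 to 0.117), that of *TRAF4* without any 1 siControl library or siDAB2IP replicate 1 (0.0695 to 0.131), and that of *TRAF5* without siControl replicate 2 or 3 or siDAB2IP replicate 1 (0.0566 to 0.0618). These adjusted p-values are from edgeR.

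Downstream of the death receptors, 14 of 15 genes were tested, and 1 rose and 1 fell (14.3%, against 14.2% of all genes), with a median log2 fold change of 0.020. *RIPK3*, a kinase of necroptosis, was at 0 in all libraries. *CFLAR*, which encodes the caspase-8 inhibitor cFLIP, fell from 212 ± 11.8 to 159.5 ± 17.6 CPM (log2 fold change −0.41, SE 0.11, edgeR adjusted p = 0.0348). *PEA15*, which encodes a death effector domain protein that binds FADD and ERK, rose from 40.7 ± 4.25 to 58.1 ± 9.92 CPM (log2 fold change 0.52, SE 0.14, edgeR adjusted p = 0.0371). Both calls were lost without any 1 siControl library or siDAB2IP replicate 2, with adjusted p-values of 0.0649 to 0.105 for *CFLAR* and 0.0754 to 0.171 for *PEA15*. With the replicate block 4 genes of this list were called in place of 2, while the share of all genes called went from 14.2% to 21%.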

How the data were processed

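RNA was isolated 48 hours after transfection, and libraries were prepared by Novogene. The submitters' processing notes name STAR 2.6.1d, featureCounts 1.5.0-p3, DESeq2 1.20.0, edgeR 3.24.3 and the build hg38, and the strand setting is not given in the sources used here. The authors deposited counts per gene and library, whole numbers without normalization, and FPKM. The FPKM equal counts scaled for gene length and a library size, which was 98.9% to 104.7% of the total count of the library. 16353783 to 21916062 counts per library were deposited, and the floor of 3 counts covers counting error only, whereas intervals of fold changes rest on the spread between libraries.

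Counts were fitted in R 4.3.3 with edgeR 4.0.16 (filterByExpr with default settings, TMM, glmQLFit and glmQLFTest, Benjamini-Hochberg adjustment over 15430 genes). CPM are TMM-normalized, and SEs were derived from the F statistic. Single genes were also compared by two-sided exact permutation tests. Alternatives were DESeq2 1.42.0, its size factors in edgeR, library size scaling, no filter, at least 10 counts in every library, the replicate block, limma 3.58.1 on log2(FPKM + 1) and log2(FPKM + 0.1) for genes with a mean of at least 0.1 FPKM, and leaving out each library. Scripts were tested on simulated data.

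Genes named were the 10 members, *DAB2IP*, 11 ligands or receptors that partner with them, and the called genes of 5 pathway lists (at most 5 each). Beyond this rule, markers of cell types, genes that overlap a member and list genes at 0 in all libraries are named. *SORT1*, *BEX3*, *TNF* and *TNFRSF9* were added after their values were seen. Some genes of the lists are not reported here by name. The members and lists were chosen with earlier results of these data known. Same-numbered libraries deviated together from their group means (correlation across genes 0.26, 0.15 and 0.25, others −0.28 to 0.02). The labels give the replicate numbers without saying what they mark. They were taken to pair the libraries only in the replicate block and in the log2 ratios of same-numbered libraries. The main edgeR fit and the permutation tests did not use the pairing. The main fit called 14.2% of all genes tested, and the replicate block 21%.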

Additional observations from a re-analysis of the deposited data

How the results depend on the processing

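Over 14 alternatives the calls of *TNFRSF12A* (log2 fold change 1.00 to 1.19) and *TNFSF10* (−1.72 to −0.90) were kept in each. *TNFRSF10A* lost its call in 2 and *TNFRSF10D* in 8, and *NGFR* gained one in 4. 1011 genes rose and 1181 fell over all genes tested, against 452 and 530 with limma on log2(FPKM + 1), 449 and 510 with log2(FPKM + 0.1), and 264 to 1172 and 459 to 1352 when 1 library was left out. The 3 members that rose became 1 to 3, and the 1 that fell 1 to 2, without 1 library, and 2 fell with DESeq2, without a filter and with the replicate block. Receptor calls (5) were 3 with at least 10 counts in every library, 2 with either limma fit and 1 to 5 without 1 library. Adaptor calls (4) were 1 with either limma fit and 1 to 4 without 1 library. Death receptor signaling calls (2) were 4 with the replicate block, 0 with either limma fit and 0 to 3 without 1 library. Neurotrophin calls (0) were 1 with DESeq2, without a filter, with at least 10 counts in every library and with the replicate block, and 0 to 2 without 1 library. Ligand calls were 3 in every alternative. Uncalled genes turned direction in 5 fits: *LTBR* (−0.13 to 0.037 without 1 library) without siDAB2IP replicate 3, *TNFRSF11B* (−0.20 to 0.17) without siControl replicate 2 or siDAB2IP replicate 1, *TNFRSF21* (−0.11 to 0.16) without siControl replicate 1 and *TNFSF15* (−0.076 to 0.47) without siControl replicate 3. Of the genes named, the block changed the call of *NGFR*, *TNFRSF25* and *SORT1* only. Apart from the library left out, causes were not tested. *TNFRSF11B* rests on 11 to 23 counts per library.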

Other observations

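A ligand gene and a receptor gene with too few counts for the test are given as counts, chosen after their values were seen. *TNF*, the founding ligand of the family, had 3, 4 and 2 counts in siControl and 10, 3 and 6 counts in siDAB2IP. *TNFRSF9* (4-1BB), the receptor of the ligand encoded by *TNFSF9*, had 3, 1 and 0 counts in siControl and 16, 3 and 5 counts in siDAB2IP. The groups overlap for both genes.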
